A study of Mus musculus with 8 samples.

Results

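The Schlafen family is a set of proteins, several of them interferon-inducible, whose mouse genes lie side by side on chromosome 11. All 7 listed mouse genes (Slfn1, Slfn2, Slfn3, Slfn4, Slfn5, Slfn8 and Slfn9) were looked up on the array, and each was represented by the probe set with the highest mean among those assigned to that gene symbol and no other. This gave 6 measured members out of 22180 genes. Slfn9 had no probe set of its own, since the probe set that names it also names Slfn8, and that probe set is described apart from the members.

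RNA was measured in 8 cultures of mouse embryonic fibroblasts (MEFs), labelled as primary cells, all of which lacked the endogenous STING gene. STING is the adaptor of the endoplasmic reticulum that passes the detection of DNA in the cytosol on to TBK1, a kinase, which activates the transcription factor IRF3. The cells had been reconstituted with STING R284S, with STING N154S, which the series assigns to the autoinflammatory disease SAVI, with human STING (hSTING), or with the empty retroviral vector pBabe. Each of these 4 lines had 1 array after double-stranded DNA (dsDNA) delivered with Lipofectamine 2000 for 9 h and 1 control array, whose exposure to the reagent alone is not stated. Each line was a single reconstituted population and no construct and treatment was repeated, so a difference between 2 arrays has no replicate check.

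Schlafen proteins share an N-terminal domain that in several members binds or cuts RNA, and tRNA is a known substrate. The short members Slfn1 and Slfn2 are known from T cells, where Slfn1 slows thymocyte growth and Slfn2 keeps resting cells quiescent and shields tRNAs from stress-induced cleavage. The intermediate members are Slfn3, studied in intestinal epithelial differentiation in rodents, and Slfn4, studied in myeloid cells. The long members Slfn5, Slfn8 and Slfn9 carry a further helicase-like part.

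The promoters of the members are shown first, because type I interferon acts on its target genes through short promoter elements. The sequences are from RefSeq (GRCm38.p6), are given 5′ to 3′ on the strand of each gene, and lie within 250 bases before its annotated start. All 7 genes matched an entry, and Slfn8 had more than one, of which the first was used. The capitals in the short and intermediate members mark ACTTCCTGG, the longest run of letters that all 4 share in that stretch, which was found by comparing these sequences with each other. The capitals in the long members mark the core of the interferon-stimulated response element (ISRE), searched on both strands as GAAA, any 2 bases and GAAA again (TTTC, any 2 bases and TTTC where it lies on the other strand).
Slfn1, chr11:83116721-83116779, plus strand: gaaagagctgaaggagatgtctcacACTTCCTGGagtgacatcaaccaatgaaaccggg
Slfn2, chr11:83065032-83065090, plus strand: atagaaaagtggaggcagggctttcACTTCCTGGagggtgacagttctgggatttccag
Slfn3, chr11:83191263-83191321, plus strand: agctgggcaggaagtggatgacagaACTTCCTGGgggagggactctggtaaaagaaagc
Slfn4, chr11:83175088-83175146, plus strand: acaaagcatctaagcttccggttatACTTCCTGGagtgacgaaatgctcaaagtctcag
Slfn5, chr11:82951922-82951981, plus strand: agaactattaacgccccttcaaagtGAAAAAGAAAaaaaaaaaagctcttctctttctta
Slfn8, chr11:83020824-83020883, minus strand: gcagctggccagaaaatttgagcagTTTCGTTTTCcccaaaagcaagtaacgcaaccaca
Slfn9, chr11:82991841-82991900, minus strand: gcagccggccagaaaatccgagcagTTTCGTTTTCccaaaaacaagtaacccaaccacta

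Over windows of 300 bases (250 before and 50 after the start), the ISRE core was present in 3 of the 7 Schlafen promoters and in 3.49% of 27025 mouse promoters. It began 155 bases before the start in Slfn5, 48 in Slfn8 and 45 in Slfn9, on the same strand as the gene in Slfn5 and on the opposite strand in Slfn8 and Slfn9. The stretches of Slfn8 and Slfn9 are much alike, with the same matched letters and a longest shared run of 20 bases. Their matches are therefore not independent, and enrichment in the family was not tested. The run ACTTCCTGG, or CCAGGAAGT on the other strand, was present in the 4 short and intermediate members and in 0.888% of all promoters. It began 74 bases before the start in Slfn1, 55 in Slfn2, 42 in Slfn3 and 73 in Slfn4. Since the run was picked as shared by these 4 genes, its presence in them was fixed, and the share is no measure of enrichment. The interferon-gamma-activated sequence, searched as TTCNNNGAA, which reads the same on both strands, was present in 0 of 7 Schlafen promoters and in 8.47% of all promoters. These matches describe letters in the windows and were not tested as binding sites.

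The deposited values are log2 signals, and in the following each number is a log2 signal unless it is called a difference or a fold. The median of all named genes was between 4.42 and 4.47 on each array, and a signal below it is called dim. The labelled cell type was checked against marker genes. All 9 measured fibroblast markers had a median over the arrays above the array medians, from 7.46 to 12.69. The same held for 0 of 5 T cell markers, whose highest signal was 4.41, for 0 of 3 B cell markers for 2 of 7 macrophage and myeloid markers (Cd68 and Csf1r), for 2 of 3 endothelial markers (Cdh5 and Kdr) and for 2 of 4 epithelial markers (Krt8 and Krt18), while the leukocyte marker Ptprc stayed between 2.48 and 2.67. Over the 8 arrays the myeloid list median lay between 3.25 and 3.83, the T cell list median between 3.21 and 3.58, and the B cell list median between 3.33 and 3.78, and in each the STING and vector arrays overlapped. The fibroblast list median with dsDNA and in control culture was 10.12 and 10.11 in R284S cells, 10.12 and 10.28 in N154S cells, 10.47 and 10.74 in hSTING cells, and 10.75 and 10.82 in vector cells. The median of 3 endothelial markers was 4.33 to 5.01 on the STING arrays and 3.93 and 4.09 on the vector arrays, and that of 4 epithelial markers overlapped between them. The fibroblast list was thus lowest in the mutant lines and the endothelial list lowest in vector cells, and their part in the results was not tested. In bulk RNA, fewer cells of a type and less RNA per cell cannot be told apart.

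Slfn2 was above the array median on all 8 arrays and was the only member that passed the test. It passed in both mutant lines and missed the threshold narrowly in hSTING cells (adjusted p = 0.0502 in limma). Its signal with dsDNA and in control culture was 9.44 and 9.44 in R284S cells, 10.39 and 9.92 in N154S cells, 10.70 and 9.22 in hSTING cells, and 7.71 and 6.91 in vector cells. All 6 arrays with STING were above both vector arrays. With the residual SD of 0.44 from the additive fit as the yardstick, the lowest STING array (hSTING control, 9.22) stood 1.51 above the vector cells with dsDNA. The hSTING control array and both R284S arrays followed one another at gaps of 0.22 and 0.00, and the hSTING and N154S arrays with dsDNA at a gap of 0.31, all within that SD.

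**Figure D1:**
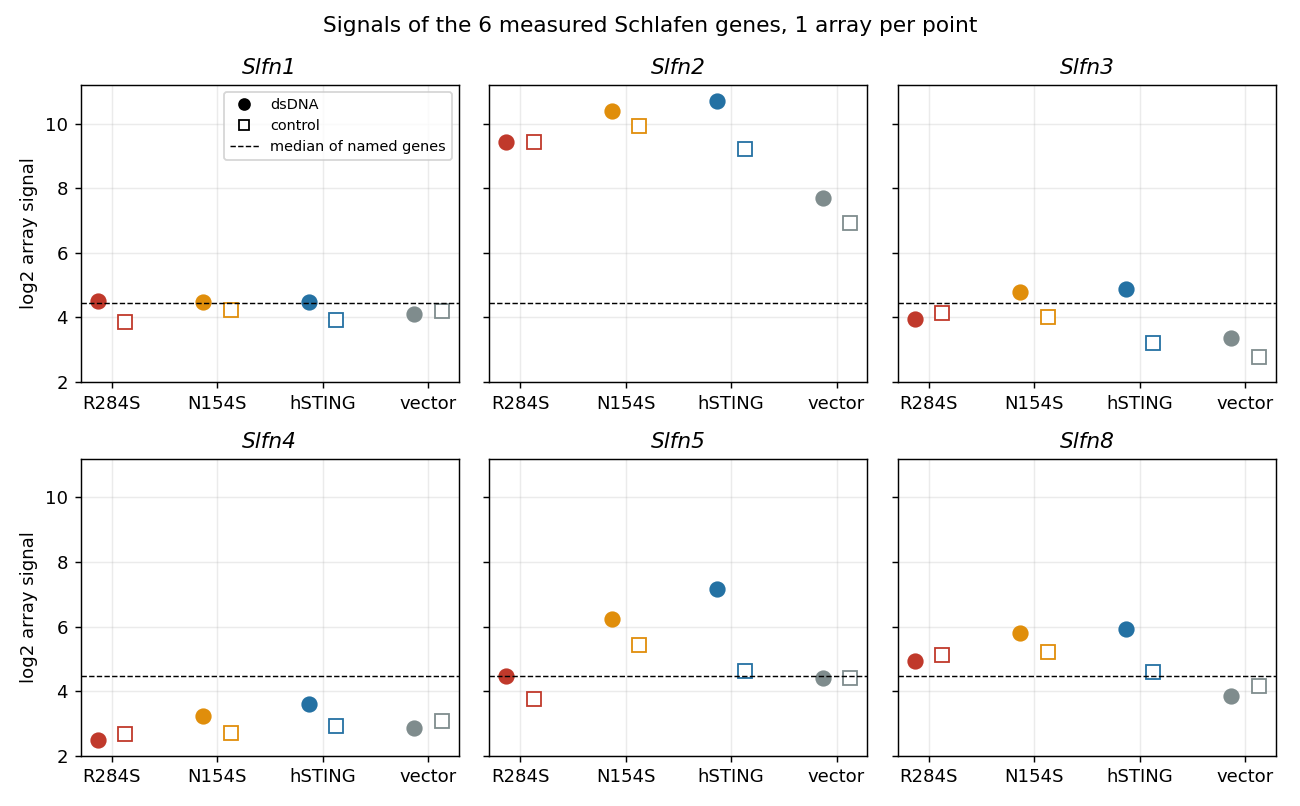
Log2 signal (vertical axis) of the 6 measured Schlafen members, 1 panel each, on each of the 8 arrays by line (horizontal axis) and treatment (filled circles, dsDNA; open squares, control), with a dashed line at the median of named genes. Slfn2 lies between 9.22 and 10.70 on the 6 STING arrays and at 7.71 and 6.91 on the vector arrays, while Slfn5 in R284S cells (4.48 and 3.77) lies at the level of vector cells (4.42 and 4.41).

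The lines were compared with an additive model of construct and treatment fitted by limma over all 22180 genes, with Benjamini-Hochberg adjustment over all of them. With 1 array per construct and treatment, its error mixes noise with any unevenness of the dsDNA effect between the lines. No replicate cultures were there to separate them, and all comparisons with vector share the same vector arrays. Averaged over treatments, Slfn2 was higher in R284S cells than in vector cells by 2.13 (SE 0.309, 95% confidence interval 1.40 to 2.86, adjusted p = 0.0221). It was higher in N154S cells than in vector cells by 2.85 (interval 2.12 to 3.57, adjusted p = 0.0116). The difference between hSTING and vector cells was 2.65 (interval 1.92 to 3.38) with an adjusted p of 0.0502, just outside the threshold of 0.05. Slfn2 was thus the single member of 6 that rose against vector in R284S cells, where 1.02% of all genes rose, and in N154S cells, where 0.708% did. In hSTING cells 0 of 6 members passed in limma, and 0.0992% of all genes rose. At an unadjusted p under 0.05, 3 of 6 members were higher in R284S cells, 4 of 6 in N154S cells and 4 of 6 in hSTING cells. Of all genes, 7.47%, 6.87% and 4.46% were higher at that level, in that order of lines. The unadjusted p of Slfn2 was smaller in hSTING cells (5.66e-05) than in R284S cells (0.000227). The adjusted p depends also on how many other genes pass, so the miss in hSTING cells is not read as a smaller rise of Slfn2. The call of Slfn2 in R284S cells was lost with trended and robust variances (adjusted p = 0.08), with all probe sets tested (adjusted p = 0.0937) and without the N154S arrays (adjusted p = 0.0762), and that in N154S cells with all probe sets tested (adjusted p = 0.0601). Without the hSTING arrays, 4 members (Slfn2, Slfn3, Slfn5 and Slfn8) passed in N154S cells. The share of all genes that passed in that setting is not given here, so this count has no background.

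As folds, Slfn2 in control culture was 5.78 times higher in R284S cells, 8.06 times higher in N154S cells and 4.96 times higher in hSTING cells than in vector cells. With dsDNA it was 3.32 times higher in R284S cells, 6.41 times higher in N154S cells and 7.95 times higher in hSTING cells than in vector cells. Against vector, R284S was thus above hSTING in control culture and below it with dsDNA, with no replicate behind either order and a gap in control culture below the residual SD. In the fit, the difference of R284S from hSTING was -0.52 (interval -1.25 to 0.21, adjusted p = 0.516), an interval that holds 0 and also more than a 2-fold lower level.

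Slfn1, the other short member, was near or below the array median throughout. Its signal with dsDNA and in control culture was 4.51 and 3.86 in R284S cells, 4.48 and 4.24 in N154S cells, 4.47 and 3.93 in hSTING cells, and 4.11 and 4.20 in vector cells. The 3 arrays of STING cells with dsDNA were the highest, and no neighbouring pair of the 8 levels was separated by more than the residual SD of 0.23. Against vector, the fitted difference was 0.03 in R284S cells, 0.21 in N154S cells and 0.05 in hSTING cells, with adjusted p values of 0.967, 0.678 and 0.956 in that order of lines.

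The intermediate members were dim. Slfn3 with dsDNA and in control culture was 3.96 and 4.12 in R284S cells, 4.80 and 4.01 in N154S cells, 4.88 and 3.21 in hSTING cells, and 3.36 and 2.76 in vector cells. Only the N154S and hSTING arrays with dsDNA were above their array medians, and all STING arrays other than the hSTING control were above both vector arrays. The fitted difference of Slfn3 from vector was 0.98 in R284S cells (interval 0.12 to 1.84, adjusted p = 0.287) and 1.35 in N154S cells (interval 0.48 to 2.21, adjusted p = 0.158). In hSTING cells it was 0.99 (interval 0.12 to 1.85, adjusted p = 0.516), so Slfn3 passed in no line although none of the 3 intervals held 0.

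Slfn4 was below the array median on all 8 arrays. Its signal with dsDNA and in control culture was 2.50 and 2.67 in R284S cells, 3.23 and 2.70 in N154S cells, 3.60 and 2.91 in hSTING cells, and 2.85 and 3.07 in vector cells. Both R284S arrays were the lowest, by a gap of 0.03 against a residual SD of 0.33, and the N154S, hSTING and vector arrays overlapped. R284S minus hSTING was -0.67 in the fit (interval -1.25 to -0.09, adjusted p = 0.3), which did not pass. No fold is given for so dim a signal. The fitted difference from vector was -0.38 in R284S cells (adjusted p = 0.564) and 0.30 in hSTING cells (adjusted p = 0.721). A dim signal on these arrays is not read as absence of the transcript.

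Among the long members, Slfn5 had the widest spread between the STING lines. Its signal with dsDNA and in control culture was 4.48 and 3.77 in R284S cells, 6.23 and 5.44 in N154S cells, 7.16 and 4.62 in hSTING cells, and 4.42 and 4.41 in vector cells. Both R284S arrays were at or below the level of the vector arrays, both N154S arrays were above all vector and R284S arrays, and the hSTING cells joined the N154S cells when given dsDNA. The levels of the hSTING control, R284S with dsDNA and both vector arrays followed one another at gaps of 0.14, 0.06 and 0.01, against a residual SD of 0.76.

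For Slfn5, the fitted difference from vector was -0.29 in R284S cells (SE 0.51, an interval that holds 0, adjusted p = 0.861) and 1.42 in N154S cells (interval 0.21 to 2.63, adjusted p = 0.264). In hSTING cells it was 1.48 (interval 0.27 to 2.68, adjusted p = 0.498), an average of 0.21 in control culture and 2.74 with dsDNA. R284S minus hSTING was -1.77 (interval -2.97 to -0.56, unadjusted p = 0.0105, adjusted p = 0.209). R284S minus N154S was -1.71 (interval -2.92 to -0.50, unadjusted p = 0.0121, adjusted p = 0.549), so neither difference passed after adjustment over all genes. N154S minus hSTING was -0.06 (interval -1.26 to 1.15, adjusted p = 0.981). That value averages differences of opposite sign, 0.82 in control culture and -0.93 with dsDNA, so it does not show the 2 lines to be alike. The 3 comparisons between STING constructs called 0 of 6 members in limma. At an unadjusted p under 0.05 the members were 2 for R284S against hSTING (13.7% of all genes), 0 for N154S against hSTING (8.9%) and 1 for R284S against N154S (7.07%). In the same comparisons limma called, in either direction, 0.951% of all genes between R284S and hSTING and 0.00902% between R284S and N154S. It called 0 genes (0.0%) between N154S and hSTING.

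Slfn8 with dsDNA and in control culture was 4.93 and 5.11 in R284S cells, 5.79 and 5.22 in N154S cells, 5.92 and 4.58 in hSTING cells, and 3.85 and 4.17 in vector cells. All 6 STING arrays were above their array medians and above both vector arrays, which were dim. The fitted difference from vector was 1.01 in R284S cells (interval 0.13 to 1.89, adjusted p = 0.281) and 1.495 in N154S cells (interval 0.62 to 2.37, adjusted p = 0.128). In hSTING cells it was 1.24 (interval 0.36 to 2.12, adjusted p = 0.478), so Slfn8 passed in no line.

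The probe set shared by Slfn9 and Slfn8 was above the array median on all 8 arrays. Its signal with dsDNA and in control culture was 7.13 and 7.05 in R284S cells, 8.61 and 8.08 in N154S cells, 9.20 and 7.29 in hSTING cells, and 6.29 and 5.89 in vector cells. All STING arrays were above both vector arrays, with the N154S arrays and the hSTING array with dsDNA above the rest. Signal on it cannot be given to either gene. Cross-hybridisation between other members of the family could not be checked, because the probe sequences were not given.

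**Figure D2:**
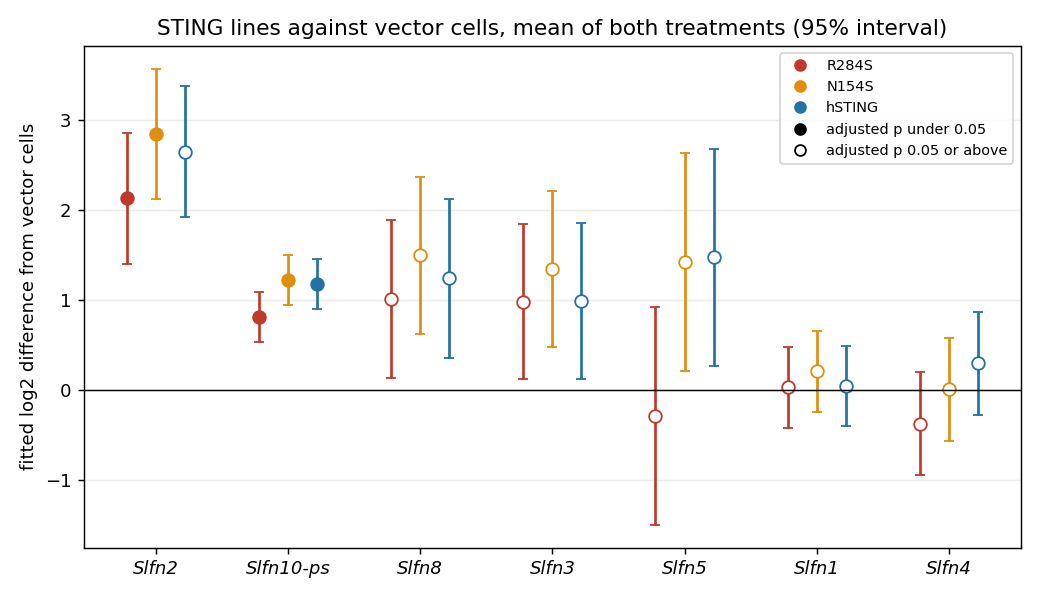
Fitted log2 difference from vector for each measured Schlafen member and Slfn10-ps in R284S, N154S and hSTING cells, averaged over treatments, with 95% confidence intervals from limma and filled markers where the adjusted p was under 0.05. Slfn2 lies at 2.13, 2.85 and 2.65 in R284S, N154S and hSTING cells, and Slfn5 is near 0 in R284S cells (-0.29) and at 1.42 and 1.48 in N154S and hSTING cells.

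Other Schlafen genes on the array were read alongside the members. Slfn10-ps, annotated by its name as a pseudogene, was 5.54 and 5.27 with dsDNA and in control culture in R284S cells, 6.01 and 5.62 in N154S cells, 5.94 and 5.61 in hSTING cells, and 4.71 and 4.48 in vector cells. All STING arrays lay above both vector arrays, and the residual SD was 0.05, so the dsDNA difference was nearly even over the lines. It rose against vector by 0.81 in R284S cells (adjusted p = 0.022), by 1.22 in N154S cells (adjusted p = 0.0087) and by 1.18 in hSTING cells (adjusted p = 0.0305). Over the alternatives run, the highest adjusted p was 0.092 in R284S cells, 0.0487 in N154S cells and 0.152 in hSTING cells, so the calls in R284S and hSTING cells were not kept throughout. Slfn14, between 2.60 and 3.14, was dim on all 8 arrays, and Slfnl1, between 3.65 and 4.53, was at or above the array median on 3 of 8. The probe set shared by Slfn5 and the transcript Slfn5os was dim on all 8 arrays, between 2.93 and 3.59 with N154S cells given dsDNA lowest, and did not have the pattern of the probe set of Slfn5 alone.

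The difference between dsDNA and control culture was largest in hSTING cells for 5 of the 6 members and in R284S cells for Slfn1 (0.65, against 0.54 in hSTING cells). In R284S cells 0 of 6 members were at least 2-fold higher with dsDNA, and 0.0271% of all genes were. In N154S cells it was 0 of 6 members and 0.379% of all genes. In hSTING cells 4 of 6 members, Slfn2, Slfn3, Slfn5 and Slfn8, were at least 2-fold higher, against 2.01% of all genes, with a lower bound of 1.35-fold for Slfn3, whose control signal was dim. In vector cells it was 0 of 6 members and 0.149% of all genes. These counts set 1 array against 1 array and carry no test.

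Slfn5 had the widest dsDNA difference of any member in hSTING cells: dsDNA minus control was 0.71 in R284S cells, 0.79 in N154S cells, 2.54 in hSTING cells and 0.01 in vector cells. The hSTING difference amounts to 5.82-fold, and in vector cells, which lack STING, the pair of values was nearly equal. For Slfn2, dsDNA minus control was 0.00 in R284S cells, 0.47 in N154S cells, 1.48 in hSTING cells and 0.80 in vector cells. Slfn2 was therefore also higher with dsDNA in cells without STING, and equal on the R284S arrays. For Slfn8 it was -0.18 in R284S cells, 0.57 in N154S cells, 1.34 in hSTING cells and -0.32 in vector cells. Slfn3 had differences of -0.16 in R284S cells, 0.79 in N154S cells, 1.67 in hSTING cells and 0.60 in vector cells, from signals that were mostly dim. The hSTING line had the largest difference for each of these 4 members. The interferon beta gene Ifnb1, an interferon induced by STING signalling, was 3.04 and 4.06 with dsDNA and in control culture in R284S cells, 4.95 and 2.82 in N154S cells, 8.80 and 3.21 in hSTING cells, and 3.18 and 3.18 in vector cells, so it was bright on the hSTING array with dsDNA. Its part in the Schlafen signals was not tested.

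**Figure D3:**
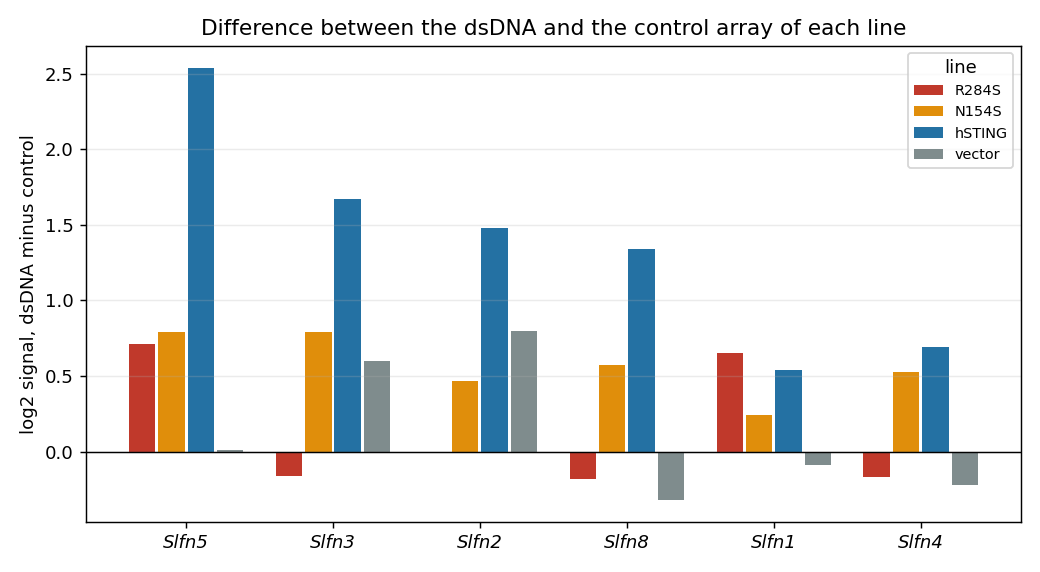
Difference in log2 signal between dsDNA and control culture for each Schlafen member in R284S, N154S, hSTING and vector cells, 1 pair of arrays per bar. The hSTING line holds the largest difference for Slfn2 (1.48), Slfn3 (1.67), Slfn5 (2.54) and Slfn8 (1.34), and the R284S differences of Slfn2, Slfn3 and Slfn8 lie at 0.00, -0.16 and -0.18.

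Averaged over the 4 lines, 0 of 6 members passed the dsDNA comparison in limma, and 4 had an unadjusted p under 0.05. The fitted difference was 1.01 for Slfn5 (interval 0.16 to 1.86, adjusted p = 0.457) and 0.69 for Slfn2 (interval 0.17 to 1.20, adjusted p = 0.448). Over all genes the same comparison called 0, with 2395 at an unadjusted p under 0.05 and a smallest adjusted p of 0.0586. A model with a term for the dsDNA effect of the STING lines against that of the vector line also called 0 of 6 members, 0 of them with an unadjusted p under 0.05. It called 0 of all genes, with 798 at an unadjusted p under 0.05. Its largest estimate among the members was 1.34 for Slfn5 (SE 0.71, adjusted p = 0.994).

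Array by array, the members at least 2-fold higher than in vector cells in control culture were 1 of 6 in R284S cells (Slfn2), 3 of 6 in N154S cells (Slfn2, Slfn5 and Slfn8) and 1 of 6 in hSTING cells (Slfn2). Of all genes, 1.15% were in R284S cells, 1.01% in N154S cells and 0.415% in hSTING cells. With dsDNA the members were 2 of 6 in R284S cells (Slfn2 and Slfn8), and 4 of 6 in N154S cells as in hSTING cells (Slfn2, Slfn3, Slfn5 and Slfn8). Of all genes with dsDNA, 1.13% were in R284S cells, 1.57% in N154S cells and 2.16% in hSTING cells. Where the vector signal was dim, the array median in its place gives a lower bound on the fold. In control culture this bound was 1.99-fold for Slfn5 and 1.71-fold for Slfn8 in N154S cells, so that only Slfn2 was 2-fold or more by it. With dsDNA it was 1.42-fold for Slfn8 in R284S cells, and for Slfn3 1.301-fold in N154S cells and 1.38-fold in hSTING cells, all under 2-fold. For Slfn8 with dsDNA it was 2.58-fold in N154S cells and 2.83-fold in hSTING cells.

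Between the STING lines with dsDNA, 2 of 6 members, Slfn2 and Slfn5, were at least 2-fold lower in R284S cells than in hSTING cells, against 1.74% of all genes. Slfn5 was 6.41 times lower in R284S cells than in hSTING cells and 3.36 times lower than in N154S cells. In control culture, 0 of 6 members were at least 2-fold lower in R284S cells than in hSTING cells, against 0.482% of all genes, and 0 were higher. Slfn5 was the 1 member at least 2-fold lower in R284S cells than in N154S cells in both treatments, against 0.302% of all genes in control culture and 0.6% with dsDNA. In control culture its R284S signal was dim, and the lower bound was 1.97-fold. Between N154S and hSTING cells, 0 of 6 members were 2-fold apart in either treatment, against 0.753% of all genes in control culture and 0.735% with dsDNA.

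A list of 29 measured interferon-stimulated genes was read in the same fit. It is a list of textbook targets such as the Oas, Ifit and Gbp genes, and the Schlafen members are not in it. Against vector, 22 of 29 rose in R284S cells, 25 of 29 in N154S cells and 8 of 29 in hSTING cells, and 0 fell. All 29 fitted differences were above 0 in each line. At an unadjusted p under 0.05 in limma there were 26 in R284S, 28 in N154S and 28 in hSTING cells. Of all genes, 7.47%, 6.87% and 4.46% were higher at that level, in the same order of lines. The lower adjusted count in hSTING cells is therefore not read as a weaker rise of the list. The adjusted counts were 9, 14 and 5 in the same order of lines with trended and robust variances, and 5, 7 and 0 with all probe sets tested. Without the N154S arrays 7 rose in R284S cells and 0 in hSTING cells, and without the R284S arrays 16 rose in hSTING cells. The median fitted difference of that list was 2.86 in R284S cells, 3.76 in N154S cells and 3.08 in hSTING cells. The median over the 6 Schlafen members was 0.50 in R284S cells, 1.38 in N154S cells and 1.11 in hSTING cells, and the median over all genes was 0.01 in R284S cells, 0.005 in N154S cells and -0.015 in hSTING cells. Among 11 measured genes of interferon signalling (receptors, kinases and transcription factors), 3 rose in R284S cells, 3 in N154S cells and 1 in hSTING cells. The genes were Irf7, Irf9 and Stat2 in the mutant lines and Irf7 in hSTING cells, and all of them are also in the first list. Of 4 measured genes that act on tRNA or its cleavage (Rnh1, Trdmt1, Nsun2 and Elac2), 0 passed in any of the 3 lines, with medians of -0.19, -0.10 and -0.07 in R284S, N154S and hSTING cells.

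Set against each array's median of that interferon-stimulated list, Slfn2 followed it closely over the 8 arrays, with a Pearson r of 0.99. The list median with dsDNA and in control culture was 8.63 and 8.60 in R284S cells, 9.80 and 9.10 in N154S cells, 9.77 and 8.11 in hSTING cells, and 5.90 and 4.84 in vector cells. The r was 0.97 for Slfn10-ps, 0.91 for Slfn8, 0.88 for Slfn3, 0.59 for Slfn5, 0.37 for Slfn1 and 0.17 for Slfn4. In R284S cells the list was above its vector level and Slfn5 was not. This was not particular to Slfn5: the fitted difference from vector in R284S cells was also 0.22 for Mx1 and 0.43 for Ifit3, both of the list. Slfn1 was near vector in R284S cells too (0.03), but unlike Slfn5 it was so in N154S (0.21) and hSTING cells (0.05) as well. These values are a description over 8 arrays of 4 lines that share line and treatment.

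**Figure D4:**
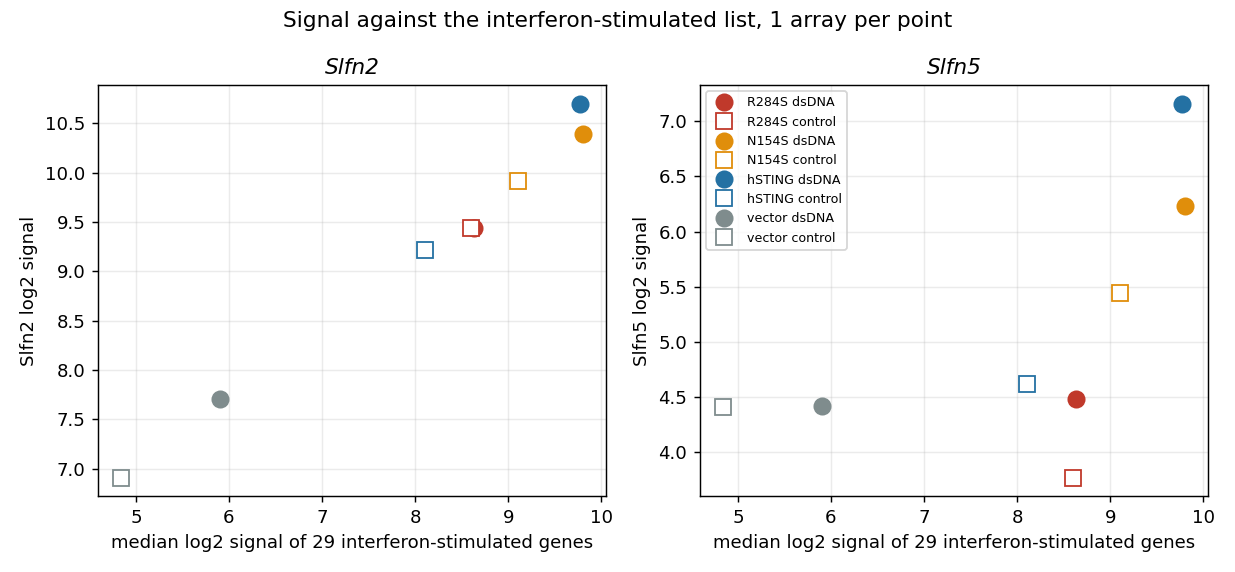
Log2 signal of Slfn2 and Slfn5 (vertical axes) against the array median of 29 interferon-stimulated genes (horizontal axes), 1 point per array, by line and treatment. Slfn2 follows the list (r = 0.99 over 8 arrays), and in the Slfn5 panel the R284S arrays (4.48 and 3.77) lie level with the vector arrays although their list medians are 8.63 and 8.60.

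By their pattern over the 8 arrays, the genes most like each member were picked by Pearson r among 1599 genes that varied at least 2-fold and were not dim throughout. Slfn2 was most like Oas1b (r = 0.998), a member of the 2′-5′ oligoadenylate synthetase family, Parp9 (0.996) and the guanylate-binding protein gene Gbp3 (0.995). Slfn8 was most like Pstpip1 (0.993), Gbp9 (0.988) and Asah2 (0.986). Slfn3 was most like Rab32 (0.993), the chemokine gene Ccl2 (0.985) and Tut7 (0.984). Slfn5 was most like Pcdh19 (0.981), a protocadherin, Tent5a (0.98) and Il18bp (0.976), the gene of a secreted cytokine inhibitor. Among the members themselves, r was 0.92 between Slfn2 and Slfn8, 0.90 between Slfn2 and Slfn3, and 0.66 between Slfn2 and Slfn5.

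Along chromosome 11 the order of the measured genes is Slfn5, Slfn8, Slfn10-ps, Slfn2, Slfn1, Slfn4, Slfn3 and Slfn14. The genes that neighbour the cluster are Fndc8, Nle1 and Unc45b on the side of Slfn5 and Ap2b1, Rasl10b and Gas2l2 on the side of Slfn14. Of these 6 genes, 0 passed in limma against vector in any line or for dsDNA, and their range over the 8 arrays was 0.23 to 1.25. The range was 3.79 for Slfn2, 3.39 for Slfn5, 2.12 for Slfn3 and 2.07 for Slfn8. It was 0.65 for Slfn1 and 1.10 for Slfn4, so members with narrow and wide ranges lay next to each other within the cluster.

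**Figure D5:**
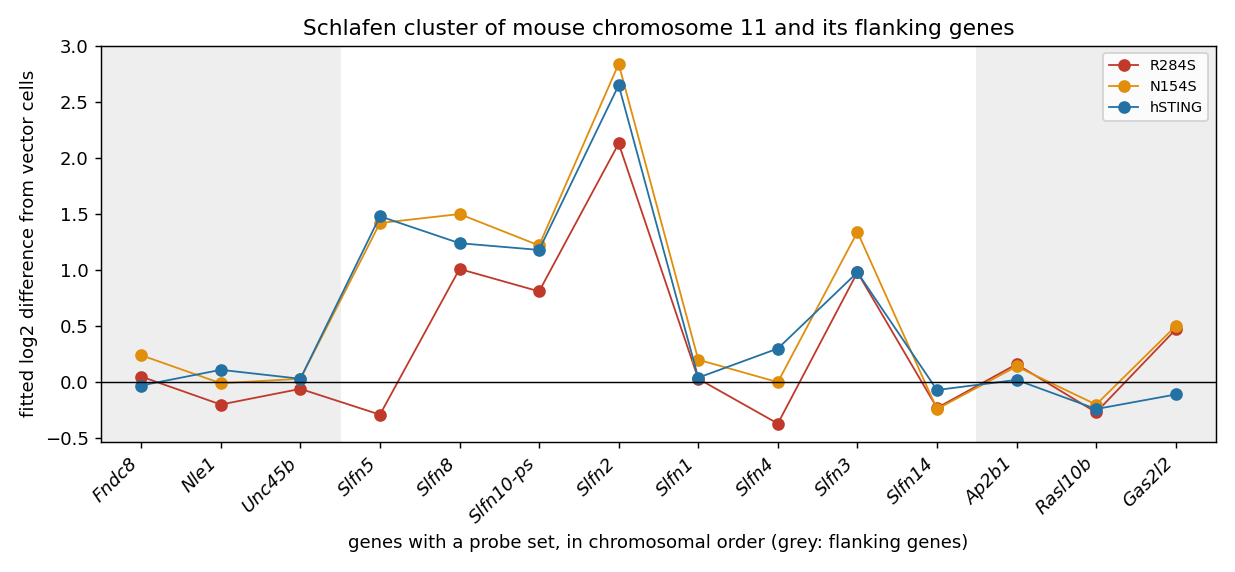
Fitted log2 difference from vector in R284S, N154S and hSTING cells for the Schlafen genes and the 3 protein-coding genes on either side, in chromosome order (equal steps, not distances). The neighbouring genes lie between -0.27 and 0.50 (Gas2l2 in N154S cells), Slfn2 reaches 2.13, 2.85 and 2.65, and the adjacent Slfn1 lies at 0.03, 0.21 and 0.05.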

How the data were processed

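Per the labels, total RNA (300 ng per sample, RNeasy columns, GeneChip WT PLUS reagents) was hybridised to Affymetrix arrays. Per the submitters' processing notes, the software was Affymetrix Expression Console 1.3.1.187, and its summarisation method and the array's build were not stated. The authors deposited log2 signals, and sorted values of any 2 of the 8 arrays differed by at most 0.25, so the arrays had been normalized to each other. No detection call was used, and the number of arrays limits the precision.

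Of 41345 probe sets, 23521 had 1 symbol in the platform annotation, 1814 had several and 16010 were not listed. Entrez identifiers of 23328 matched RefSeq GRCm38.p6 (0 differing symbols). The probe set with the highest mean was kept for the 1082 genes with several, leaving 22180 genes, with no filter on low values, so all 6 measured members were tested.

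limma 3.58.1 (R 4.3.3, lmFit and eBayes) fitted construct plus treatment to the 8 arrays, with 3 residual degrees of freedom. A further fit added the term for dsDNA in STING lines, with 2. Threshold: adjusted p of 0.05. On simulated data for R284S against vector (22180 genes), 50 of 100 genes changed by 1 on the log2 scale and 74 of 100 changed by 2 were recovered, with 1 false call. Pairs of arrays were compared by a difference of at least 1 on the log2 scale with the brighter array at or above its median. The counts used the measured signals. Where the dimmer signal was dim, a lower bound on the fold was taken with the array median in its place.

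The named genes are all members, other Schlafen genes on the array, the 3 genes most like each variable member, and the 3 nearest protein-coding genes on each side. The members and lists were chosen with earlier results of these data known. Alternatives were the eBayes setting, the probe sets used, median subtraction, a fold threshold of 1.5 and leaving out 1 line.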

Additional observations from a re-analysis of the deposited data

Results flagged for a closer look

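For Slfn3, dsDNA minus control was -0.16 in R284S cells and 1.67 in hSTING cells, a gap of -1.83 between differences of opposite sign. For Slfn8, dsDNA minus control was -0.18 in R284S cells and 1.34 in hSTING cells, a gap of -1.52. For Slfn8 in hSTING cells against vector cells, the values were 1.34 and -0.32, a gap of 1.66. These 3 gaps were picked because the differences had opposite signs. The negative ones were smaller than the residual SD (0.53 for Slfn3 and 0.54 for Slfn8), so they are not read as a fall. Each rests on 1 pair of arrays per line, and the difference between the lines was not tested.

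The probe set that names both Slfn9 and Slfn8 did not enter the comparisons of members. With dsDNA it was 9.20 in hSTING cells and 6.29 in vector cells, a difference of 2.91, which cannot be given to either gene.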

How the results depend on the processing

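The additive fit compares dsDNA with control within each line, so it already pairs the treatments by line. No further pairing was possible, because the groups share 1 replicate number only. Of the counts of members recomputed under the alternatives, 90 stayed within 1.5 times and 17 moved further. Many of the 90 were counts of 0 that stayed 0, and a count has no direction that could reverse. Most alternatives leave a fitted difference between constructs unchanged by design, so its sign could hardly have changed. Against vector in R284S cells, the 1 called member (Slfn2) became 0 with trended and robust eBayes variances (adjusted p = 0.08) and 0 with all probe sets tested (adjusted p = 0.0937). Without one other line the count was 0 to 1, with 0 without the N154S arrays (adjusted p = 0.0762). In N154S cells it became 0 with all probe sets tested (adjusted p = 0.0601). Without one other line it was 1 to 4, with 4 (Slfn2, Slfn3, Slfn5 and Slfn8) without the hSTING arrays. In that setting 28 of the 29 interferon-stimulated genes also passed, against 25 with all arrays, and the share of all genes is not given. In hSTING cells the count of 0 became 1 (Slfn2) with the mean of all single-symbol probe sets (adjusted p = 0.0482) and 1 with array medians subtracted (adjusted p = 0.0388). Without one other line it was 0 to 1, with 1 without the R284S arrays (adjusted p = 0.0195). Over all settings, the adjusted p of Slfn2 ran from 0.00812 to 0.0937 in R284S, 0.0029 to 0.0601 in N154S and 0.0195 to 0.259 in hSTING cells. That of Slfn10-ps ran from 0.0113 to 0.092 in R284S, 0.0023 to 0.0487 in N154S and 0.0154 to 0.152 in hSTING cells. The cause was not tested. With a fold threshold of 1.5, which admits smaller differences by construction, control cultures gave 2 members higher in R284S than vector (2.89% of all genes higher), 1 lower in R284S than hSTING (1.94%) and 3 higher in N154S than hSTING (1.87%). With dsDNA it gave 4 lower in R284S than hSTING (3.99%), 1 lower in N154S than hSTING (2.25%) and 4 lower in R284S than N154S (1.71%). For dsDNA against control it gave 2 higher in R284S (0.37%), 2 in N154S (1.32%) and 1 in vector cells (0.523%). With 1 array per construct and treatment, the spread between cultures is unknown.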

Other observations

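In N154S cells, 189 genes were at least 2-fold above vector cells and at or above the array median in both treatments. Of these, 2 were at most 0.1 of a log2 unit above vector in R284S cells in both treatments. They were Slfn5 and Apod, the gene of the lipocalin apolipoprotein D. Slfn5 entered narrowly, at 2.04-fold in control culture, with a lower bound of 1.99-fold because its vector signal was dim. The pattern was chosen after the values of Slfn5 were seen and was not tested. Apod with dsDNA and in control culture was 4.06 and 3.87 in R284S cells, 8.92 and 8.97 in N154S cells, 9.12 and 7.44 in hSTING cells, and 4.11 and 4.62 in vector cells. The antiviral GTPase gene Mx1, chosen likewise after its values were seen, was 2.95 and 2.89 in R284S cells, 5.97 and 4.45 in N154S cells, 7.22 and 3.08 in hSTING cells, and 2.60 and 2.79 in vector cells.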
